A study of Mus musculus with 12 samples.

Results

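Acute phase genes are described here in the stromal vascular fraction of mouse white adipose tissue: Hp, Saa3, Lcn2, Steap4, Ptx3 and Agt, 6 of the 31053 genes counted in 12 single-cell libraries. The genes were chosen by name, with earlier results of these data known, and all 6 were found in every count matrix. The fraction holds what remains of digested fat once the floating adipocytes are taken off, so the mature fat cell itself is not represented. Epididymal (eWAT) and inguinal (iWAT) fat pads of male mice aged 12 weeks were sampled, with 2 libraries, labelled as biological replicates, in each of 3 groups and each depot. The study describes its libraries as individual mice, and the labels do not say whether both depots came from the same ones. WT-Veh mice were C57BL/6J given methylcellulose vehicle, ob/ob-Veh mice were homozygous for the Lep ob allele and received the same vehicle, and ob/ob-Rosi mice carried the same genotype and received rosiglitazone, an agonist of PPARγ, at 30 mg/kg by gavage each morning and evening for 3 days. The ob/ob mouse lacks functional leptin in the whole body from birth and is obese for that reason. It is therefore a model of obesity from leptin deficiency, and no obese group with leptin and no lean group with rosiglitazone was analysed here.

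The acute phase response is the change in secreted proteins that follows infection or injury. Interleukin 6, interleukin 1 and TNF drive it, largely through the transcription factors STAT3, C/EBPβ, C/EBPδ and NF-κB. The liver makes most of the circulating proteins, but adipose tissue also makes some of them, and several are raised in the blood in obesity. Hp encodes haptoglobin, which captures free hemoglobin. Saa3 encodes the serum amyloid A protein that mice make mainly outside the liver. Lcn2 encodes lipocalin 2, which withholds iron from bacteria by binding their siderophores and is stored in neutrophil granules. Steap4 encodes a membrane reductase of iron and copper, Ptx3 a long pentraxin that binds complement C1q and microbial surfaces, and Agt angiotensinogen, the substrate of renin.

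On GRCm38, Hp lies on the minus strand at chr8:109575128-109579172, Agt on the minus strand at chr8:124556534-124569706, Lcn2 on the minus strand at chr2:32384633-32388252 and Saa3 on the minus strand at chr7:46711998-46715700. Ptx3 lies on the plus strand at chr3:66219910-66225805 and Steap4 on the plus strand at chr5:7960457-7982213. Promoters of 5 of the 6 genes were matched in a RefSeq table (GRCm38.p6) that runs from 250 bases before to 50 bases after the start of each gene. The C/EBP motif TTNNGCAA was searched on both strands and occurred in 4 of the 5, against 10.8% of 32851 promoters of the same length. The STAT motif TTCNNNGAA occurred in 2 of the 5 and in 8.3% of all promoters. The windows below show these matches because the proteins that bind such motifs carry the acute phase signal. Capitals mark the motif, on the gene's own strand, and a match is a description of the letters only.

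Saa3, C/EBP motif, chr7:46715760-46715783, minus strand: aagtgggaTTATGCAAgatcaaac

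Lcn2, C/EBP motif in reverse, chr2:32387940-32387963, minus strand: ccttcctgTTGCTCAAccttgcac

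Ptx3, C/EBP motif, chr3:66219822-66219845, plus strand: gtttaacaTTGTGCAAcctcttca

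Steap4, C/EBP motif in reverse, chr5:7960377-7960400, plus strand: agctcctcTTGCGAAAtcaagcgg

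Steap4, STAT motif, chr5:7960348-7960372, plus strand: ttgaactcTTCCCGGAAactttgct

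Agt, STAT motif, chr8:124569862-124569886, minus strand: agtagggcTTCCTGGAAggggccca

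The C/EBP matches of Saa3, Ptx3 and Steap4 began 99, 57 and 87 bases before the start, and the Steap4 STAT match began 116 bases before it. The Lcn2 window falls inside the gene model given above, which starts farther upstream than the RefSeq start. The 10-letter NF-κB consensus was found in Ptx3 and Steap4 and in 8.46% of all promoters. The direct repeat that PPAR-RXR binds (DR1) was found in 0 of the 5 and in 0.381% of promoters. The C/EBP, NF-κB and STAT motifs are short, so such matches are common across the genome.

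The libraries held 20132553 to 92475986 UMIs, each UMI standing for 1 captured RNA molecule, and 126095 of 139755 barcodes passed the cell filter. Cells were clustered within each depot and classes were named from marker genes. The suffix "-like" in a class name marks that the name rests on those markers. Adipocyte progenitor cells (APC-like, marked by Pdgfra, Col1a1 and relatives) numbered 17594 in eWAT and 19625 in iWAT. The APC-like class kept 431 eWAT cells of a sub-cluster led by Cd74, H2-Ab1, Mrc1 and Ptprc and 287 iWAT cells of one led by Mrc1, Cd163 and Csf1r, genes of macrophages and other immune cells. The progenitor-like and preadipocyte-like sub-classes leave them out. Group names below are those of the labels. Lipid-associated macrophage-like cells made up 0.196% and 0.774% of cells in the eWAT libraries labelled ob/ob-Veh and 17.3% to 29.3% in the other 4. Lep counted 39.5 to 425 UMIs per 1000 Adipoq UMIs in the libraries labelled WT-Veh or ob/ob-Veh and 1407 to 3901 in those labelled ob/ob-Rosi, from 4 to 277 Lep and 11 to 265 Adipoq UMIs a library. The iWAT library labelled WT-Veh replicate 1 held 427 APC-like cells, 2.50% of its total, with 62.2% of its cells unnamed. Every direction given below runs between libraries as labelled. At most 338 barcodes, 3.29% of the smaller library, were shared by any pair of libraries.

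The 6 genes were unevenly counted in the 2 depots and were held by different cells. eWAT gave 52.9% of the UMIs of all genes in the cells kept. It gave 87.3% of the Hp UMIs, 82.9% of Lcn2, 78.9% of Agt, 70.7% of Saa3 and 64.0% of Steap4, but 53.3% of Ptx3, close to its share of all UMIs. APC-like cells, 30.5% of the eWAT cells and 28.7% of the iWAT cells, held 86.2% and 73.7% of the Steap4 UMIs, 93.5% and 94.0% of the Ptx3 UMIs and 92.7% and 86.6% of the Agt UMIs. Hp differed between depots, with 82.2% of its eWAT UMIs but 22.1% of its iWAT UMIs in APC-like cells. Saa3 showed the opposite order, 33.8% in eWAT and 77.4% in iWAT. Lcn2 was mostly held by other cells in both depots, with 30.4% and 32.1% in APC-like cells. These shares are descriptions and depend on how many cells of each type were captured.

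**Figure D1:**
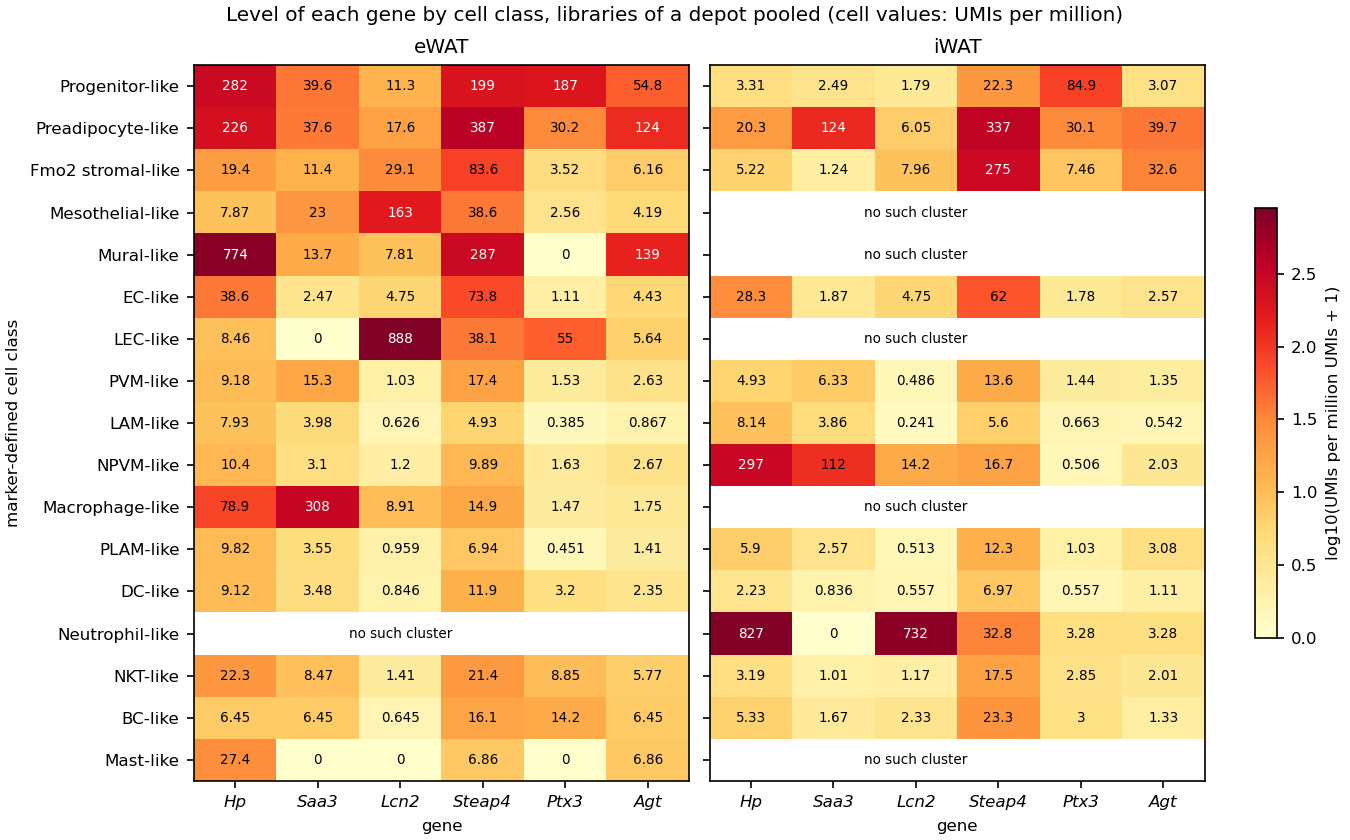
Level of each of the 6 genes (columns) in each marker-defined class (rows) of eWAT and iWAT, in CPM of the class, with the libraries of a depot pooled and the colour on a log10 scale. Steap4 and Ptx3 are highest in sub-classes of APC-like cells in both depots, whereas in iWAT the highest Lcn2 and Hp levels, 732 and 827 CPM, stand in neutrophil-like cells. Rows that read "no such cluster" are classes with no cluster in that depot.

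Levels are given as CPM, the UMIs of a gene scaled to a fixed total of UMIs in the same cells. Hp reached 774 CPM in the 195 eWAT mural-like cells, the contractile cells around vessels, with 230 to 1646 CPM in the 5 libraries with 20 or more of them. The ob/ob-Rosi libraries held 69 and 163 of their 396 Hp UMIs, at 3126 CPM from 17 cells and 1646 CPM from 53, and the 4 other libraries were at 230 to 563 CPM. In ob/ob-Veh replicate 1 the mural-like level (230 CPM) was below the preadipocyte-like one (347 CPM). The progenitor-like (282 CPM pooled, 28.0 to 314) and preadipocyte-like (226 CPM pooled, 90.2 to 347) sub-classes of APC-like cells followed. Within each of the 6 eWAT libraries the preadipocyte-like level was the higher, and the pooled progenitor-like value comes mostly from the ob/ob-Veh libraries. In iWAT the order was different. Neutrophil-like cells had 827 CPM (471 to 1001 in the 4 libraries with 20 or more of them) and NPVM-like macrophages 297 CPM, while preadipocyte-like cells had 20.3 CPM. No eWAT cluster was named neutrophil-like and no iWAT cluster mural-like, so these classes could not be compared between depots. In eWAT, NPVM-like cells had 10.4 CPM and the class named only macrophage-like 78.9 CPM (47.6 to 133). One macrophage-like cluster of eWAT, with 67 to 502 cells a library, had 95.8 to 315 CPM. The order thus also depends on which classes were named in each depot. Endothelial (EC-like) cells had 38.6 CPM in eWAT and 28.3 CPM in iWAT over all libraries, a difference that was not tested. B cells (BC-like), which are not a known source of Hp, had 6.45 and 5.33 CPM with a UMI in 1.62% and 0.488% of cells, at a median of 1752.5 and 1113.5 UMIs per cell. These BC-like levels are taken as the level that free RNA gives. In iWAT, 1909 of the BC-like cells came from WT-Veh replicate 1 and 20 to 118 from each other library. The BC-like level over all iWAT libraries is therefore mostly that of WT-Veh replicate 1.

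Lcn2 was led by small classes. The 137 eWAT lymphatic endothelial-like (LEC-like) cells had 888 CPM, with a UMI in 72.3% of them, and 461 to 1171 CPM in the 3 libraries with at least 20. The 193 iWAT neutrophil-like cells had 732 CPM, 605 to 1122 in the 4 libraries with 20 or more. Mesothelial-like cells, which line the epididymal pad, had 163 CPM (110 to 267) and gave 40.3% of all eWAT Lcn2 UMIs from 1467 cells. Preadipocyte-like cells had 17.6 CPM in eWAT and 6.05 in iWAT, against 0.645 and 2.33 in BC-like cells. No iWAT cluster was named LEC-like or mesothelial-like.

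Saa3 was the most concentrated of the 6. An eWAT macrophage-like cluster of 136 cells, led by Prg4, Alox15, Cxcl13, Cd5l, Marco and Selp, held 49.8% of all eWAT Saa3 UMIs at 5978 CPM, with a UMI in 98.5% of its cells. Among all eWAT cells of the macrophage-like class the level was 308 CPM, and 66.9 to 1095 across the 6 libraries. APC-like cells came next, the preadipocyte-like ones with 37.6 CPM (1.97 to 61.2). The progenitor-like ones had 39.6 CPM pooled, but 982 of their 997 Saa3 UMIs lay in ob/ob-Veh replicate 1 (64.0 CPM), and the other libraries had 0 to 6.5 CPM. In 5 of the 6 libraries the preadipocyte-like level was the higher. In iWAT the highest levels were 124 CPM in preadipocyte-like cells and 112 CPM in NPVM-like cells, and both spanned a range from 0 across libraries. A UMI of Saa3 was found in 1.82% of eWAT BC-like cells and in 1.82% of eWAT APC-like cells, so a share of cells does not separate these classes for this gene. The pooled CPM was 6.45 against 37.1, but the latter rests on few cells, since 63 APC-like cells held 85.4% of these UMIs.

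Steap4, Ptx3 and Agt had their highest or next highest level in a sub-class of APC-like cells in both depots, though not in every one. Ptx3 was at 3.52 CPM in eWAT Fmo2 stromal-like cells, under the 14.2 CPM of BC-like cells. Agt was at 3.07 CPM in iWAT progenitor-like cells, beside 0 to 1.68 CPM in BC-like cells across the iWAT libraries. The iWAT neutrophil-like level of Agt, 3.28 CPM, rests on 1 UMI. Steap4 was highest in preadipocyte-like cells, 387 CPM in eWAT (215 to 614) and 337 CPM in iWAT (265 to 616), with a UMI in 53.8% and 57.2% of them. Mural-like cells in eWAT (287 CPM) and Fmo2 stromal-like cells in iWAT (275 CPM) came second, within the spread of the first. EC-like cells had 73.8 and 62.0 CPM. Ptx3 was highest in progenitor-like cells, 187 CPM in eWAT (17.5 to 258) and 84.9 CPM in iWAT (21.3 to 284), ahead of preadipocyte-like cells at 30.2 (9.53 to 58.8) and 30.1 CPM (4.58 to 236), although the ranges overlapped. Within libraries the progenitor-like level was the higher in 5 of 6 in eWAT. Agt showed the reverse preference, with 124 CPM in eWAT preadipocyte-like against 54.8 CPM in progenitor-like cells, and 39.7 against 3.07 CPM in iWAT. In eWAT, mural-like cells had 139 CPM of Agt (41.1 to 324), which overlapped the preadipocyte-like range.

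The genes with the most similar levels over 129 sums of class and library also differed among the members. The measure was Pearson's r of log2 CPM among 6688 genes with a mean of 20 CPM or more. Hp was nearest to G0s2 (r = 0.733) and Thbs1 (r = 0.730), Lcn2 to Slpi (r = 0.636), Saa3 to Prg4 (r = 0.514), Steap4 to Serpinh1 (r = 0.859), Ptx3 to Tmod2 (r = 0.653) and Agt to Adamts12 (r = 0.646). Serpinh1 encodes a collagen chaperone, and Slpi a secreted protease inhibitor. Between members the highest r was that of Steap4 with Agt (0.630), and Hp with Ptx3 gave -0.026. These sums share libraries and depth, so the values describe likeness only.

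Whether obesity and rosiglitazone went with changes of these genes was asked in sums of UMIs per library over the APC-like cells, with the 6 libraries of a depot in 1 edgeR quasi-likelihood fit. Calls needed a change of 1.1-fold or more and a p, adjusted by Benjamini and Hochberg over the genes tested, no greater than 0.05. The smallest p that an exact permutation of 2 libraries against 2 allows is 0.333, so each p given here rests on the fitted spread. In eWAT, 2 of the 6 members were called between ob/ob-Veh and WT-Veh, Hp and Agt, both with the higher level in ob/ob-Veh as labelled. Of all 13149 genes tested there, 7.22% were called. Both contrasts below share the ob/ob-Veh libraries, so a value far from the rest in that group would move both.

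**Figure D2:**
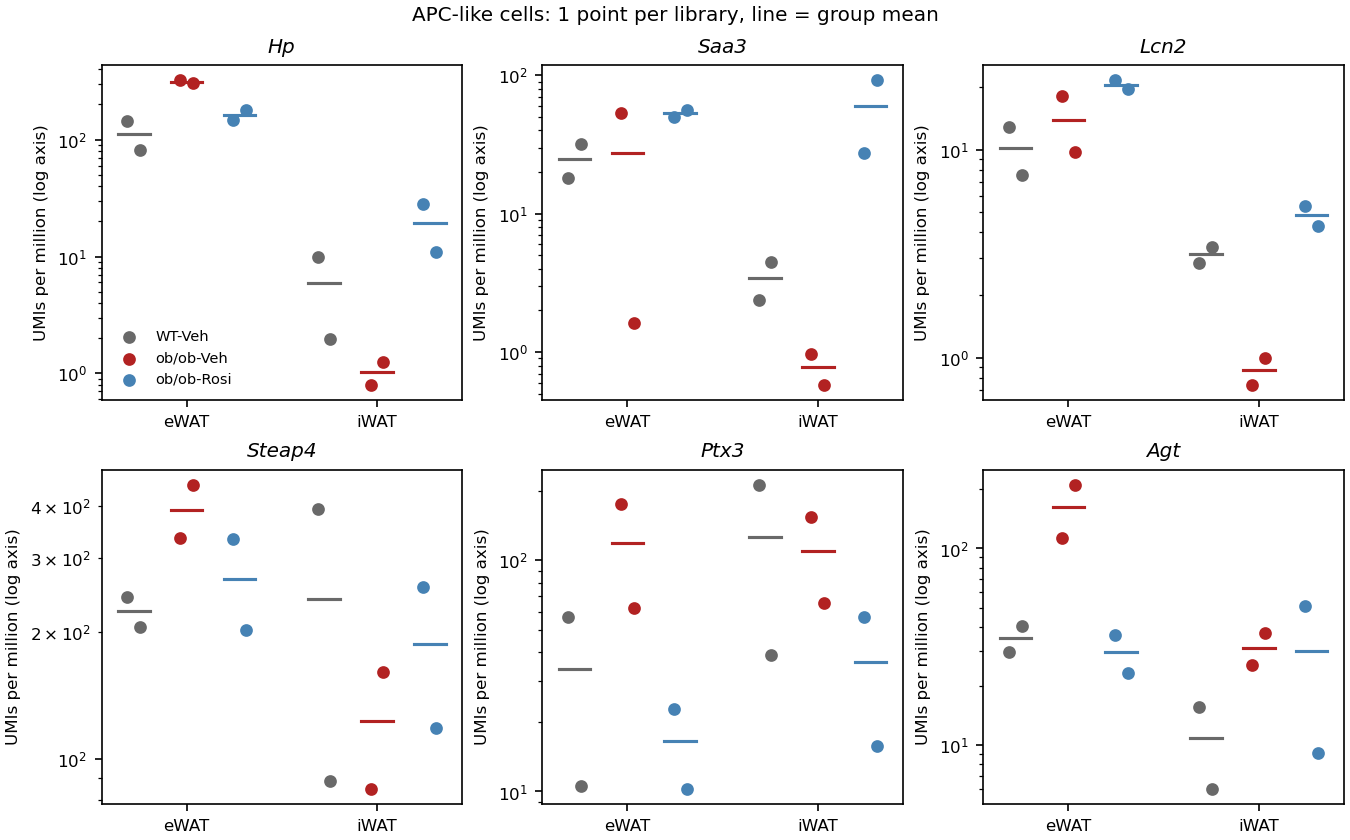
CPM of each gene in APC-like cells on a log axis, with 1 point per library, a line at the group mean and both depots in each panel. Hp and Agt of the eWAT ob/ob-Veh libraries sit above the other eWAT libraries, and the iWAT Saa3 points of ob/ob-Rosi (27.5 and 91.6 CPM) sit above the other iWAT points.

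Agt was at 29.9 and 40.5 CPM in eWAT APC-like cells of WT-Veh, 113 and 211 CPM in ob/ob-Veh and 36.2 and 23.3 CPM in ob/ob-Rosi. Both ob/ob-Veh libraries lay above all 4 others. The level was 4.33-fold higher in ob/ob-Veh than in WT-Veh (log2 change 2.12, SE 0.32, adjusted p = 0.0042) and 5.19-fold lower in ob/ob-Rosi than in ob/ob-Veh (log2 change -2.38, SE 0.33, adjusted p = 0.0024). Without WT-Veh replicate 1 the first change was 1.99 on the log2 scale with adjusted p = 0.060, so that call rested on it. The second kept its call under all 18 alternatives. A UMI of Agt was found in 23.6% and 34.5% of the ob/ob-Veh cells and in 4.25% to 9.50% elsewhere, and once each cell was thinned to 700 UMIs the shares were 6.56% and 11.6% against 1.35% to 2.42%.

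Hp was at 143 and 81.9 CPM in eWAT APC-like cells of WT-Veh, 321 and 303 CPM in ob/ob-Veh and 149 and 178 CPM in ob/ob-Rosi. Here too both ob/ob-Veh libraries lay above the rest. Hp was 2.63-fold higher in ob/ob-Veh than in WT-Veh (log2 change 1.39, SE 0.34, adjusted p = 0.034). The log2 change and adjusted p were 1.00 and 0.22 without WT-Veh replicate 2, 1.23 and 0.19 without ob/ob-Veh replicate 1, and 1.53 and 0.058 without ob/ob-Veh replicate 2. Between ob/ob-Rosi and ob/ob-Veh the log2 difference was -0.89 (SE 0.34, adjusted p = 0.14). The share of cells with an Hp UMI was 42.0% and 39.4% in ob/ob-Veh, 13.1% and 15.5% in WT-Veh and 17.5% and 24.3% in ob/ob-Rosi, and 14.4% and 14.0% against 3.90% to 8.51% after thinning.

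Ptx3 varied widely within groups. It was at 57.0 and 10.6 CPM in WT-Veh, 175 and 62.1 CPM in ob/ob-Veh and 22.8 and 10.3 CPM in ob/ob-Rosi of eWAT. It was called lower in ob/ob-Rosi than in ob/ob-Veh, by 7.35-fold (log2 change -2.88, SE 0.77, adjusted p = 0.046), which with Agt made 2 of 6 members, beside 8.11% of all genes. The adjusted p was 0.079 without ob/ob-Rosi replicate 1, 0.38 without ob/ob-Rosi replicate 2, 0.21 without ob/ob-Veh replicate 1 (log2 change -1.77) and 0.089 with DESeq2. With no upper limits on cells this Ptx3 call was lost too. Between ob/ob-Veh and WT-Veh the log2 difference of Ptx3 was 1.77 (SE 0.74, adjusted p = 0.19), and with the replicate number as a block it was 1.95 and called (adjusted p = 0.00090), in a fit that called 13.1% of all genes.

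Steap4, Lcn2 and Saa3 were not called in eWAT APC-like cells. Steap4 stood at 243 and 206, 335 and 449, and 334 and 202 CPM in the 3 groups in the order above, with a log2 difference of 0.72 (adjusted p = 0.20) and then -0.49 (adjusted p = 0.37). Lcn2 stood at 12.8 and 7.56, 18.1 and 9.72, and 21.5 and 19.6 CPM in the same order, with differences of 0.42 (adjusted p = 0.59) and 0.57 (adjusted p = 0.43). Saa3 stood at 18.1 and 31.9, 53.6 and 1.63, and 50.2 and 55.9 CPM. The 2 ob/ob-Veh libraries thus differed more than any groups did, and the 95% interval of the Saa3 log2 difference to WT-Veh ran from -1.94 to 2.35. Without ob/ob-Veh replicate 1 that difference was -4.09 (adjusted p = 0.00059), and the difference between ob/ob-Rosi and ob/ob-Veh went from 0.88 to 5.17 (adjusted p = 0.00014). Between ob/ob-Rosi and WT-Veh, 0 members and 0.0% of all genes were called by edgeR, while 236 genes (1.79%), Lcn2 among them, had an unadjusted p under 0.05 and DESeq2 called 0 members.

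**Figure D3:**
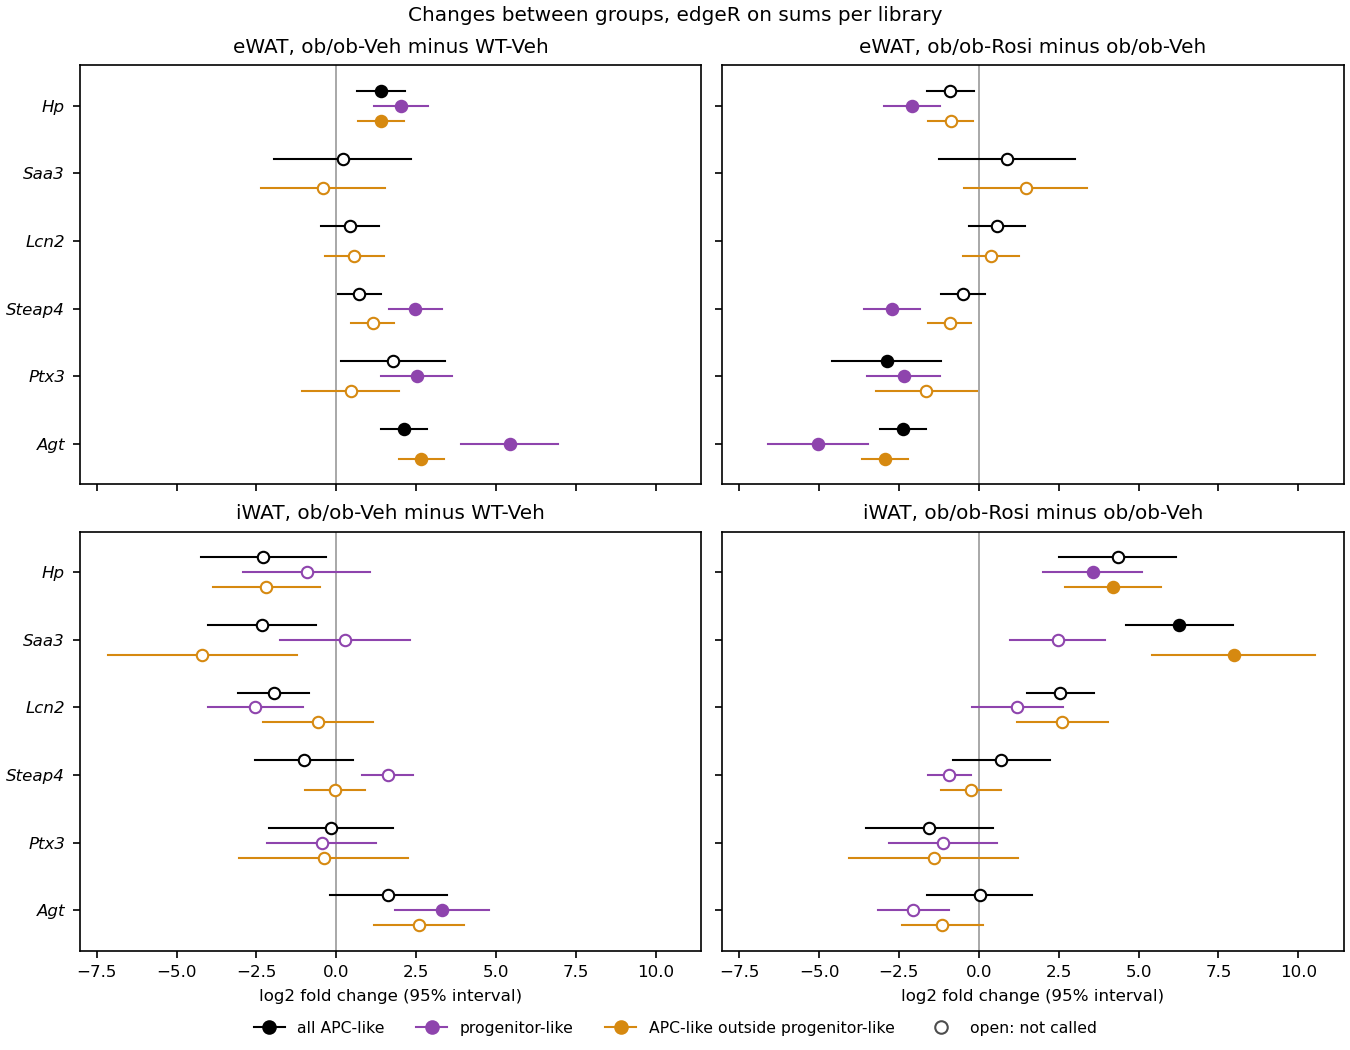
Log2 difference of each gene between groups with its 95% interval, for APC-like cells and their sub-classes in each depot, from edgeR on sums per library. In eWAT the Agt intervals of ob/ob-Veh against WT-Veh lie to the right of 0 and those of ob/ob-Rosi against ob/ob-Veh to the left, while the Saa3 interval in APC-like cells spans 0 in both.

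The make-up of the APC-like class moved with the groups. Progenitor-like cells were 61.6% and 55.1% of the APC-like cells in the eWAT ob/ob-Veh libraries and 2.23% to 9.05% in the other 4. Changes within the sub-classes are therefore given beside the whole. The ob/ob-Veh progenitor-like cells came almost all from sub-clusters that the other groups hardly entered, among them sub-cluster 6, led by Ptgs2, Il6, Tnfaip6, Has1 and Ptx3 (276 CPM of Ptx3), and the ob/ob-Veh preadipocyte-like cells came from sub-cluster 9, led by Sult1e1 and Agt. Preadipocyte-like cells of the other groups lay in sub-clusters 1, 2 and 3. The part of this split in the changes was not tested, since the sub-clusters were made from the same counts.

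The name progenitor-like is weak for part of these cells. Sub-cluster 7, which gave 1054 of the 2552 progenitor-like cells of ob/ob-Veh replicate 1 and 1160 of the 1679 of replicate 2, scored 0.51 on progenitor and 0.42 on preadipocyte markers with 0 progenitor markers among its top 10 genes. Of the 4867 eWAT progenitor-like cells, 2925 had the same name when each cell was assigned by itself. The name preadipocyte-like is weak too. Sub-cluster 9, which gave 1480 of the 1497 preadipocyte-like cells of ob/ob-Veh replicate 1 and 1300 of the 1313 of replicate 2, scored 0.57 on preadipocyte and 0.46 on Fmo2 stromal markers, with 0 preadipocyte markers among its top 10 genes. Of the 11921 eWAT preadipocyte-like cells, 6034 had the same name when assigned singly.

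In eWAT progenitor-like cells 4 members were called higher in ob/ob-Veh than in WT-Veh and the same 4 lower in ob/ob-Rosi than in ob/ob-Veh, beside 3.77% and 2.69% of the 8338 genes tested. Saa3 and Lcn2 were under the low-count filter there. Steap4 was at 58.5 and 26.7 CPM in WT-Veh, 194 and 258 in ob/ob-Veh and 43.2 and 17.5 in ob/ob-Rosi (log2 change 2.46, SE 0.39, adjusted p = 0.0017, then -2.71, SE 0.41, adjusted p = 0.0016). Its call was lost at the other clustering resolutions and where each cell was assigned by itself, with adjusted p of 0.0661 to 0.775 for the first contrast and 0.527 to 0.925 for the second. Hp was at 91.0 and 57.0, 314 and 278, and 96.5 and 28.0 CPM (log2 change 2.03, SE 0.40, adjusted p = 0.0092, then -2.09, SE 0.41, adjusted p = 0.0096). The first lost its call without WT-Veh replicate 2 (1.63, adjusted p = 0.154) and the second without ob/ob-Rosi replicate 2 (-1.59, adjusted p = 0.108).

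Ptx3 in the same progenitor-like cells was at 41.1 and 24.3, 258 and 91.5, and 44.6 and 17.5 CPM (log2 change 2.52, SE 0.53, adjusted p = 0.013, then -2.35, SE 0.53, adjusted p = 0.026). Without ob/ob-Veh replicate 1 the changes were 1.45 (adjusted p = 0.072) and -1.30 (adjusted p = 0.15). The first was also lost without WT-Veh replicate 2 (adjusted p = 0.17), the second without ob/ob-Rosi replicate 1 or 2 (0.113 and 0.345). Agt in progenitor-like cells counted 1374 UMIs in ob/ob-Veh against 2 in WT-Veh and 2 in ob/ob-Rosi, a ratio of 38.6 (counting interval 10.7 to 319) and of 29.4 (8.13 to 243) after scaling to class totals. The call against ob/ob-Rosi was lost without ob/ob-Rosi replicate 1 (adjusted p = 0.057), and with cells thinned or another clustering resolution Agt was not tested there. The WT-Veh and ob/ob-Rosi libraries had only 56 to 226 progenitor-like cells, against 2552 and 1679 in ob/ob-Veh.

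In eWAT preadipocyte-like cells Hp and Agt were called between ob/ob-Veh and WT-Veh and Agt between ob/ob-Rosi and ob/ob-Veh, beside 7.77% and 8.05% of genes. Agt was at 33.5 and 47.4 CPM in WT-Veh, 224 and 310 in ob/ob-Veh and 40.6 and 25.2 in ob/ob-Rosi, 6.26-fold higher and then 7.69-fold lower (log2 change 2.65, SE 0.31, adjusted p = 0.0010, and -2.94, SE 0.31, adjusted p = 0.00071). Both calls held under all 18 alternatives. Hp was at 153 and 90.2, 347 and 331, and 161 and 191 CPM (log2 change 1.39, SE 0.31, adjusted p = 0.025) and lost its call without WT-Veh replicate 2 (1.00, adjusted p = 0.157) or without either ob/ob-Veh library (1.26 and 1.51, adjusted p = 0.190 and 0.0869 for replicates 1 and 2). APC-like cells outside the progenitor-like sub-clusters, which include the 431 cells led by immune genes, likewise had Hp and Agt called in the first contrast and Agt in the second, beside 6.73% and 7.3% of genes, with Hp 2.63-fold and Agt 6.29-fold higher in ob/ob-Veh than in WT-Veh and Agt 7.65-fold lower in ob/ob-Rosi. Both Agt calls held under all 18 alternatives, and the Hp call was lost without WT-Veh replicate 2 (1.00, adjusted p = 0.147) or either ob/ob-Veh library (1.31 and 1.47, adjusted p = 0.162 and 0.0966). Steap4 in preadipocyte-like cells was at 274 and 235, 554 and 614, and 374 and 215 CPM, with no overlap of ob/ob-Veh with the rest and a log2 difference of 1.11 (SE 0.30, adjusted p = 0.053). With the replicate block Steap4 was called there in both contrasts (1.14, adjusted p = 0.0051, and -0.96, adjusted p = 0.015), as were Hp (-0.86, adjusted p = 0.039) and Ptx3 (-1.51, adjusted p = 0.0080) in the second, beside 14.3% and 15.2% of genes in the blocked fit. Outside the progenitor-like sub-clusters the block added Steap4 in both contrasts (1.16, adjusted p = 0.0074, and -0.96, adjusted p = 0.022) and Ptx3 in the second (-1.68, adjusted p = 0.0060), beside 12.9% and 13.7% of genes.

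In iWAT APC-like cells 0 of the 6 members were called between ob/ob-Veh and WT-Veh by edgeR, and 0.346% of 13574 genes were. Hp, Saa3 and Lcn2 had an unadjusted p under 0.05 there, as did 16.6% of all genes. DESeq2 called Hp (adjusted p = 0.0346) and Saa3 (adjusted p = 0.0291), and the share of all genes that it called was not recorded. Hp was at 9.97 and 1.97 CPM in WT-Veh and 0.80 and 1.25 in ob/ob-Veh (log2 difference -2.29, SE 0.85, adjusted p = 0.25), Saa3 at 2.37 and 4.47 and then 0.971 and 0.581 (-2.33, SE 0.73, adjusted p = 0.20), and Lcn2 at 2.85 and 3.42 and then 0.742 and 0.997 (-1.97, SE 0.47, adjusted p = 0.14). These iWAT levels are near those of BC-like cells over all iWAT libraries, 5.33 CPM for Hp, 1.67 for Saa3 and 2.33 for Lcn2. WT-Veh replicate 1 gave 1909 of those BC-like cells, with 12 Hp and 5 Saa3 UMIs, so these levels are mostly of that library. None of the 3 could thus be told from free RNA in the ob/ob-Veh libraries. The BC-like cells of those libraries, 20 and 54 in number, held 0 UMIs of Hp and of Saa3, too few cells to set a level there. Agt was at 15.7 and 5.98 and then 25.5 and 37.0 CPM (1.62, SE 0.79, adjusted p = 0.35). Steap4 (392, 88.9, 84.9 and 161 CPM) and Ptx3 (213, 38.8, 154 and 65.5 CPM) were highest in WT-Veh replicate 1, the library that stood apart. Without it the log2 differences went from -1.01 to 0.33 for Steap4 and from -0.17 to 1.41 for Ptx3.

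Between ob/ob-Rosi and ob/ob-Veh in iWAT APC-like cells 1 member was called by edgeR, Saa3, beside 0.405% of genes. DESeq2 called Hp (adjusted p = 1.00e-06) and Lcn2 (adjusted p = 0.0013) as well, with no share of all genes recorded for its fits. Saa3 was at 27.5 and 91.6 CPM in ob/ob-Rosi, 77.6-fold above 0.971 and 0.581 in ob/ob-Veh (log2 change 6.28, SE 0.72, adjusted p = 0.025). The call was lost without ob/ob-Rosi replicate 2 (5.12, adjusted p = 0.082), ob/ob-Veh replicate 1 (6.82, adjusted p = 0.41) or ob/ob-Veh replicate 2 (5.93, adjusted p = 0.17). Hp was at 28.1 and 11 CPM, above all 4 other iWAT libraries, with a log2 difference of 4.35 (SE 0.79, adjusted p = 0.061). BC-like cells of the same ob/ob-Rosi libraries had 10.0 and 9.78 CPM of Hp, from 2 UMIs and 1, so replicate 2 could not be told from free RNA. Lcn2 was at 5.38 and 4.30 CPM, also above the others, with 2.56 (SE 0.45, adjusted p = 0.061). Steap4 (256 and 118 CPM, 0.71, adjusted p = 0.56), Ptx3 (56.8 and 15.8 CPM, -1.55, adjusted p = 0.33) and Agt (51.0 and 9.11 CPM, 0.03, adjusted p = 0.99) overlapped with ob/ob-Veh. Between ob/ob-Rosi and WT-Veh in iWAT 0 members and 0.0% of genes were called by edgeR. Hp and Saa3 had an unadjusted p under 0.05, as did 2.86% of all genes, and DESeq2 called Saa3 (adjusted p = 4.18e-07). The replicate block added 17 member calls to 7 over the iWAT classes refitted with it, not listed by gene here. In APC-like cells the blocked fit called 1.44% of all genes between ob/ob-Veh and WT-Veh and 4.01% between ob/ob-Rosi and ob/ob-Veh.

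Outside the progenitor-like sub-clusters, a class formed after the data had been seen because iWAT ob/ob-Veh held only 6 and 70 preadipocyte-like cells, Hp and Saa3 were called in iWAT between ob/ob-Rosi and ob/ob-Veh, beside 2.06% of genes. Most such ob/ob-Veh cells lay in an unnamed sub-cluster led by Sult1e1, C7 and Agt. Hp was at 1.84 and 1.42 CPM in ob/ob-Veh and 37.5 and 19.3 in ob/ob-Rosi (log2 change 4.2, SE 0.66, adjusted p = 0.028), and its adjusted p was 0.065 to 0.38 without any 1 of these 4 libraries. Saa3 counted 3 UMIs in ob/ob-Veh and 2558 in ob/ob-Rosi, a ratio of 287 after scaling (counting interval 98.0 to 1391). Its call was lost without ob/ob-Veh replicate 1 or 2 (adjusted p = 0.327 and 0.194) or ob/ob-Rosi replicate 2 (0.0749). Agt was at 23.6 and 17.5 CPM in WT-Veh and 133 and 112 in ob/ob-Veh, with a log2 difference of 2.58 (adjusted p = 0.081). Within iWAT progenitor-like cells Hp was called too, at 0.609 and 1.17 CPM in ob/ob-Veh and 14.5 and 4.73 in ob/ob-Rosi (log2 change 3.57, SE 0.69, adjusted p = 0.030, beside 3.34% of genes). These ob/ob-Rosi levels lie around the 10.0 and 9.78 CPM of the BC-like cells, which rest on 2 UMIs and 1. This change could thus not be told from free RNA. That call was lost without ob/ob-Rosi replicate 1 (2.61, adjusted p = 0.083), ob/ob-Veh replicate 1 (3.13, adjusted p = 0.34) or ob/ob-Veh replicate 2 (3.98, adjusted p = 0.21). Agt was called higher in iWAT progenitor-like cells of ob/ob-Veh than of WT-Veh, beside 1.37% of genes, from levels of 0, 0.580, 5.61 and 6.10 CPM (log2 change 3.30, SE 0.65, adjusted p = 0.045), and lost its call without WT-Veh replicate 2 (adjusted p = 0.247) and without either ob/ob-Veh library (0.460 and 0.293).

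A few cells carried most of the Saa3. In eWAT, 63 APC-like cells with 10 or more Saa3 UMIs held 85.4% of the 2914 Saa3 UMIs of the class, although 321 cells had at least 1. In iWAT 26 of 157 such cells held 93.0% of 2762 UMIs. These cells numbered 2, 8, 28, 0, 9 and 16 in the eWAT libraries, taken as replicates 1 and 2 of WT-Veh, then of ob/ob-Veh, then of ob/ob-Rosi, and 0, 1, 0, 0, 5 and 20 in iWAT. The other members were spread over more cells, with 43.3% of Hp, 38.0% of Lcn2, 50.1% of Ptx3, 19.9% of Steap4 and 14.8% of Agt in eWAT cells of 10 or more UMIs of the gene.

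**Figure D4:**
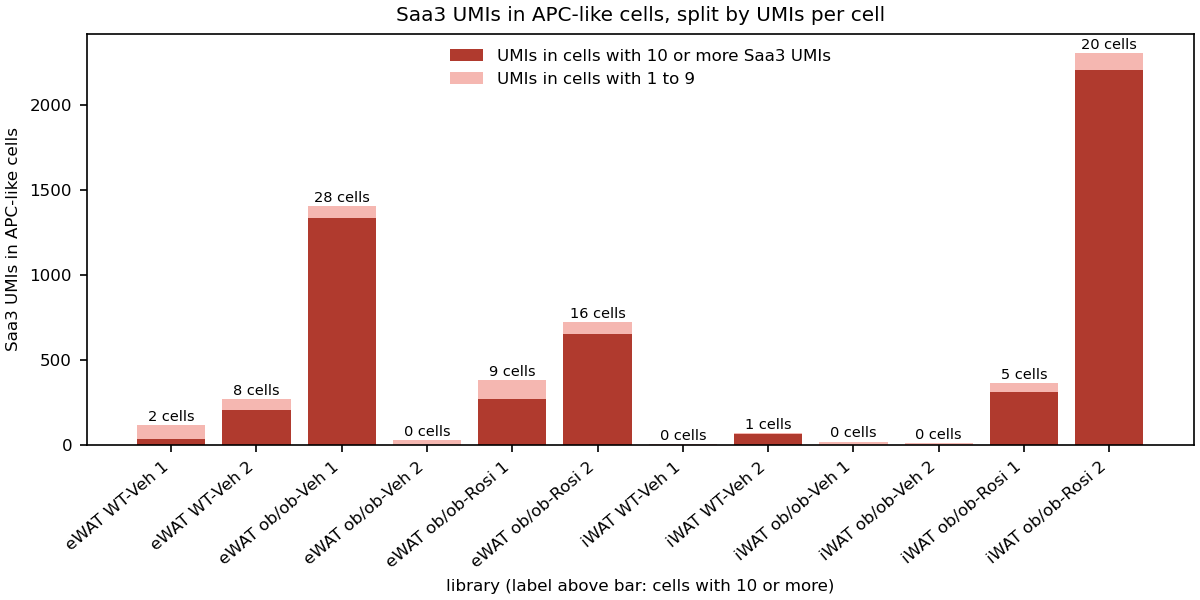
Saa3 UMIs in APC-like cells of each library, split into cells with 10 or more Saa3 UMIs and cells with fewer, with the number of the former above each bar. The 28 cells of eWAT ob/ob-Veh replicate 1 and the 20 cells of iWAT ob/ob-Rosi replicate 2 hold 95.2% and 95.6% of the Saa3 UMIs in the APC-like cells of their libraries, and eWAT ob/ob-Veh replicate 2 has 0 such cells.

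In the Saa3-rich APC-like cells other members were high as well, as a description only. Hp was at 428 to 1237 CPM in them across the 5 eWAT libraries that had any, and at 79.4 to 313 CPM in the remaining APC-like cells. Lcn2 was at 325, 666, 1484 and 583 CPM in those of WT-Veh replicate 2, ob/ob-Veh replicate 1 and both ob/ob-Rosi libraries, against 5.32 to 14.3 CPM in the remaining cells, and at 0 in the 2 cells of WT-Veh replicate 1. In iWAT ob/ob-Rosi, Lcn2 was at 61.3 and 400 CPM against 5.17 and 2.20 CPM. Csf1r, a macrophage receptor, was at 0 to 67.6 CPM in these cells and 19.3 to 59.5 CPM in the rest of the same 8 libraries, and lower in them in 6 of the 8. Col1a1, a stromal collagen gene, was at 973 to 5001 CPM in them and 1524 to 5441 CPM in the rest, and also lower in them in 6 of the 8. Pdgfra, a marker of the APC-like class, was at 0 to 530 CPM against 266 to 725 CPM and lower in 7 of 8. Their part in the differences of Saa3 between groups was not tested.

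The depots differed most in Hp. In APC-like cells Hp was lower in iWAT than in eWAT by 25.5-fold in WT-Veh (log2 difference -4.67, SE 0.69, adjusted p = 0.0031), 297-fold in ob/ob-Veh (-8.21, SE 0.76, adjusted p = 0.00016) and 8.19-fold in ob/ob-Rosi (-3.03, SE 0.57, adjusted p = 0.012) in a fit of all 12 libraries, which takes them as independent although both depots may come from the same mice. The calls in WT-Veh and ob/ob-Veh held under all 17 alternatives, and that in ob/ob-Rosi was lost without ob/ob-Rosi replicate 2 of eWAT (-2.86, adjusted p = 0.069) or of iWAT (-2.46, adjusted p = 0.11). The iWAT level in ob/ob-Veh, with a UMI in 0.275% and 0.332% of cells, is no higher than in BC-like cells over all iWAT libraries, so the 297-fold difference is against background. In WT-Veh the iWAT levels (9.97 and 1.97 CPM) lie around those of BC-like cells in the same libraries (5.04 and 4.32 CPM), and in ob/ob-Rosi replicate 2 of iWAT (11 CPM) the level is near its 9.78 CPM, so these folds are not exact sizes either.

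Lcn2 was lower in iWAT by 15.7-fold in ob/ob-Veh (-3.97, SE 0.46, adjusted p = 0.00056, called under all 17 alternatives) and 4.11-fold in ob/ob-Rosi (-2.04, SE 0.39, adjusted p = 0.013). The iWAT ob/ob-Veh levels (0.742 and 0.997 CPM) are under the 2.33 CPM of BC-like cells over all iWAT libraries, so the 15.7-fold difference is against background. The ob/ob-Rosi call was lost without any of the 4 ob/ob-Rosi libraries (adjusted p = 0.051 to 0.15). In WT-Veh the Lcn2 difference was -1.59 (SE 0.44, adjusted p = 0.064). Saa3 was called lower in iWAT in ob/ob-Veh (-5.11, SE 1.31, adjusted p = 0.044), which rested on eWAT ob/ob-Veh replicate 1, since without it the difference was -0.85 (adjusted p = 0.82). The adjusted p was also above the threshold without eWAT WT-Veh replicate 1 or 2 (0.067 each), eWAT ob/ob-Rosi replicate 1 or 2 (0.059 and 0.058) and iWAT ob/ob-Veh replicate 1 or 2 (0.25 and 0.26). Agt (-2.30, SE 0.64, adjusted p = 0.059), Steap4 (-1.61, SE 0.57, adjusted p = 0.14) and Ptx3 (-0.07, SE 0.93, adjusted p = 0.98) were not called in ob/ob-Veh. The members called thus numbered 1 in WT-Veh, 3 in ob/ob-Veh and 2 in ob/ob-Rosi, beside 5.21%, 6.12% and 4.64% of 14145 genes. With thinned cells only 1 was called in ob/ob-Rosi. With the replicate number as a block, Lcn2 (-1.44, adjusted p = 0.041) and Ptx3 (1.87, adjusted p = 0.0050) were called in WT-Veh too, and Agt in ob/ob-Veh (-2.32, adjusted p = 0.032), where the blocked fit called 8.05% and 9.76% of genes.

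**Figure D5:**
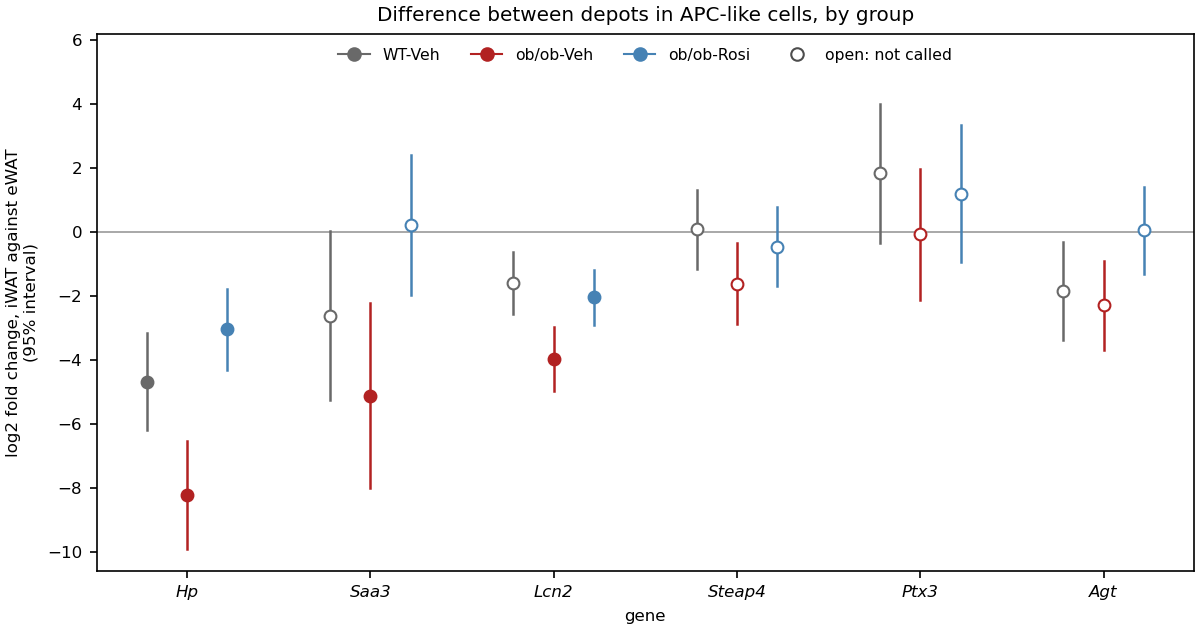
Log2 difference between iWAT and eWAT of each gene in APC-like cells by group, with 95% intervals, from the fit of 12 libraries. Hp lies below 0 in every group, at -4.67, -8.21 and -3.03, while the Ptx3 and Steap4 intervals of WT-Veh span 0.

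Within progenitor-like cells Hp was again lower in iWAT, by 46.6-fold in WT-Veh (log2 difference -5.54, SE 0.76, adjusted p = 0.00039), 336-fold in ob/ob-Veh (-8.39, SE 0.67, adjusted p = 1.11e-06) and 6.80-fold in ob/ob-Rosi (-2.77, SE 0.56, adjusted p = 0.011). The first was lost without iWAT WT-Veh replicate 2 (-3.97, adjusted p = 0.0511), and the last without eWAT ob/ob-Rosi replicate 1 (-1.29, adjusted p = 0.682) or iWAT ob/ob-Rosi replicate 2 (-2.08, adjusted p = 0.0982). In ob/ob-Veh, Agt (11.1-fold, adjusted p = 1.54e-05), Steap4 (6.18-fold, adjusted p = 0.00016) and Lcn2 (14.2-fold, adjusted p = 0.00062) were also lower in iWAT, Agt and Steap4 under all 17 alternatives. Saa3 was called there too (-5.22, adjusted p = 0.0097), but the difference was -0.28 without eWAT ob/ob-Veh replicate 1, and the call was lost without either iWAT ob/ob-Veh library (adjusted p = 0.100 and 0.0878). Steap4 in WT-Veh was -1.82 (SE 0.47, adjusted p = 0.041) and lost its call without 6 of the libraries in turn, among them eWAT WT-Veh replicate 1 (-1.15, adjusted p = 0.487) and iWAT WT-Veh replicate 2 (-1.13, adjusted p = 0.398), while without any of the 4 ob/ob-Veh libraries the adjusted p was 0.0565 to 0.0579. The iWAT ob/ob-Veh libraries held 9 and 10 Hp UMIs in these cells, below the level of BC-like cells over all iWAT libraries. The BC-like cells of those libraries, 20 and 54 in number, held 0 Hp UMIs, too few cells to set a level there. The iWAT WT-Veh levels of Hp (4.24 and 1.06 CPM) are also below the BC-like level over all iWAT libraries, and those of ob/ob-Rosi lie around it. The Hp folds between depots in WT-Veh and ob/ob-Veh are therefore against background. In ob/ob-Rosi the iWAT level was 14.5 CPM from 78 UMIs in replicate 1, above the BC-like one. It was 4.73 CPM in replicate 2, below it, so that fold is not an exact size. Lcn2 in ob/ob-Veh (0.473 and 1.17 CPM in iWAT) was also against background. Steap4 in iWAT ob/ob-Veh (28.6 and 42.1 CPM) was under the BC-like level of those libraries as well (68.8 and 92.2 CPM, from 2 and 5 UMIs). The share of genes called was 4.21% in WT-Veh, 7.63% in ob/ob-Veh and 2.72% in ob/ob-Rosi. The depot fits within parts of the APC-like class, here and below, were added after the data had been seen.

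Outside the progenitor-like sub-clusters Hp was lower in iWAT by 17.0-fold in WT-Veh, 202-fold in ob/ob-Veh and 5.75-fold in ob/ob-Rosi, beside 2.34%, 6.55% and 1.97% of genes. The iWAT levels were 12.9 and 3.91 CPM in WT-Veh, around the BC-like level over all iWAT libraries, and 1.84 and 1.42 CPM in ob/ob-Veh, below it. The first 2 held under all 17 alternatives, and the last was lost without eWAT ob/ob-Rosi replicate 2 (-2.39, adjusted p = 0.0748) or iWAT ob/ob-Rosi replicate 2 (-2.09, adjusted p = 0.129). Lcn2 was lower by 13.2-fold in ob/ob-Veh (adjusted p = 0.0041), lost without iWAT ob/ob-Veh replicate 2 (-2.94, adjusted p = 0.0681). In WT-Veh it was lower by 5.79-fold (adjusted p = 0.047), against iWAT levels at or under 2.33 CPM in both groups, and this call was lost with thinned cells (adjusted p = 0.698) and without any of the WT-Veh or ob/ob-Rosi libraries (adjusted p = 0.059 to 0.285).

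Whether the change between groups itself differed by depot was tested by the interaction. In APC-like cells 0 members were called by edgeR, beside 0.156% of genes for the rosiglitazone contrast and 0.127% for the obesity contrast, while 4 and 2 members had an unadjusted p under 0.05, as did 1182 (8.36%) and 1156 (8.17%) of the 14145 genes. For Hp the ob/ob-Rosi against ob/ob-Veh change was higher in iWAT than in eWAT by 5.18 on the log2 scale (SE 0.87, adjusted p = 0.051), and the ob/ob-Veh against WT-Veh change lower by 3.54 (log2 difference -3.54, SE 0.94, adjusted p = 0.20). With the replicate block the first was 5.04 and called (adjusted p = 0.012), beside 1.01% of genes. DESeq2 called Hp alone in each, where the adjusted p was 5.31e-07 and 0.0018, with no share of all genes recorded. Within progenitor-like cells the interaction of ob/ob-Veh against WT-Veh was called for Lcn2, beside 0.394% of genes. This fit was added after the data had been seen. Both eWAT WT-Veh libraries held 0 Lcn2 UMIs in these cells, so no fold is given. The call (adjusted p = 0.030) was lost without either eWAT WT-Veh library (0.117 and 0.233), eWAT ob/ob-Veh replicate 1 (0.0973), iWAT WT-Veh replicate 2 (0.187) or iWAT ob/ob-Veh replicate 1 (0.122).

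Outside the APC-like cells, members were called in 4 classes of eWAT and 1 of iWAT. The alternatives for these classes were added after the data had been seen. In eWAT EC-like cells Hp was at 17.4 and 17.7 CPM in WT-Veh, 67.5 and 55.6 in ob/ob-Veh and 26.6 and 38.1 in ob/ob-Rosi, 3.27-fold higher in ob/ob-Veh than in WT-Veh (log2 change 1.71, SE 0.31, adjusted p = 0.012). Steap4 was at 41.2 and 25.4, 114 and 113, and 65.8 and 71.0 CPM there, 3.34-fold higher (log2 change 1.74, SE 0.30, adjusted p = 0.0085). Of the genes tested in EC-like cells, 4.21% were called. The Hp call was lost without WT-Veh replicate 1 (1.71, adjusted p = 0.11) or 2 (1.69, adjusted p = 0.10). The Steap4 call was lost without WT-Veh replicate 2 (1.34, adjusted p = 0.090), and its change was 0.70 to 0.80 with thinned cells, cells assigned singly or a clustering resolution of 2. With the replicate block Hp (-0.81, adjusted p = 0.035), Agt (-2.08, adjusted p = 0.019) and Saa3 (3.53, adjusted p = 0.0097) were called between ob/ob-Rosi and ob/ob-Veh in eWAT EC-like cells, beside 12.5% of genes, and Steap4 between ob/ob-Rosi and WT-Veh (1.1, adjusted p = 0.022, beside 2.51%). The Saa3 levels were 0 and 0.573 CPM in ob/ob-Veh and 4.83 and 4.84 CPM in ob/ob-Rosi, the latter from 8 and 24 UMIs. BC-like cells of ob/ob-Rosi had 14.4 and 9.89 CPM of Saa3, each from 1 UMI. The Agt levels of EC-like cells were 4.82 and 10.9 CPM and then 3.02 and 1.41 CPM. The 100 and 56 BC-like cells of ob/ob-Veh had 1.89 and 34.6 CPM of Agt. So few BC-like cells do not set a level, and neither gene could be placed above free RNA or at it. In iWAT EC-like cells 0 members were called, and Hp stood at 11.3 and 13, 32.1 and 12.0, and 42.1 and 35.3 CPM.

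Saa3 was the member called in the other eWAT classes. In perivascular macrophage-like (PVM-like) cells it was at 24.7 and 48.9 CPM in WT-Veh, 3.27 and 0.778 in ob/ob-Veh and 17.5 and 17.0 in ob/ob-Rosi. The ob/ob-Veh libraries lay below the other 4. The level was 20.4-fold lower in ob/ob-Veh than in WT-Veh (log2 change -4.35, SE 0.52, adjusted p = 0.0024, beside 3.36% of genes, and called under all 18 alternatives) and 9.74-fold higher in ob/ob-Rosi than in ob/ob-Veh (log2 change 3.28, SE 0.55, adjusted p = 0.016, beside 2.56% of genes). The latter was lost without ob/ob-Rosi replicate 2 (3.29, adjusted p = 0.12). BC-like cells had 8.99 and 10.6 CPM in WT-Veh, 3.77 and 0 in ob/ob-Veh and 14.4 and 9.89 in ob/ob-Rosi, from 0 to 3 UMIs a library, so this background level was lowest in ob/ob-Veh too and lay near the ob/ob-Rosi values of PVM-like cells. Its part in the change was not tested. With the replicate block Steap4 (1.14, adjusted p = 0.029, then -1.12, adjusted p = 0.046) and Agt (2.11, adjusted p = 0.030, then -2.61, adjusted p = 0.036) were called in these cells in both contrasts, beside 13.4% and 11.4% of genes. Agt was at 0.331 to 5.33 CPM in these 6 libraries, and Steap4 at 4.46 to 25.4 CPM, where BC-like cells had 0 to 34.6 CPM of Agt and 7.03 to 43.1 CPM of Steap4.

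In eWAT mesothelial-like cells Saa3 was at 267 and 11.8 CPM in WT-Veh, 3.03 and 1.4 in ob/ob-Veh and 8.42 and 140 in ob/ob-Rosi. It was called lower in ob/ob-Veh than in WT-Veh (log2 change -6.01, SE 1.23, adjusted p = 0.026, beside 3.63% of genes). The change was -2.33 (adjusted p = 0.54) without WT-Veh replicate 1, and the adjusted p was 0.064 without ob/ob-Veh replicate 1 and 0.069 without ob/ob-Veh replicate 2. With the replicate block Saa3 was called higher in ob/ob-Rosi than in ob/ob-Veh too (5.26, adjusted p = 0.011, beside 6.48% of genes). In eWAT T and natural killer (NKT-like) cells Saa3 was called higher in ob/ob-Rosi than in ob/ob-Veh, beside 3.99% of genes, from 2 and 46 UMIs against 3 and 2, the 46 lying in 2 of 623 cells (log2 change 3.79, SE 0.69, adjusted p = 0.0076). Without ob/ob-Rosi replicate 2 this was 2.10 (adjusted p = 0.63), and without ob/ob-Veh replicate 1 or 2 the adjusted p was 0.10 and 0.078.

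In iWAT PVM-like cells the called levels were low, and those of Hp were near background. BC-like cells had 0 to 1.68 CPM of Agt across the iWAT libraries, from 0 to 4 UMIs each. Agt was at 0.589 and 0.217 CPM in WT-Veh and 4.00 and 5.24 in ob/ob-Veh (adjusted p = 0.040, beside 6.95% of genes), and Hp at 2.73 and 2.50 CPM in ob/ob-Veh and 10.3 and 5.34 in ob/ob-Rosi (adjusted p = 0.040, beside 12.0% of genes), where BC-like cells of the same ob/ob-Rosi libraries had 10.0 and 9.78 CPM of Hp. The Agt call was lost without WT-Veh replicate 2 (adjusted p = 0.206) and without either ob/ob-Veh library (0.249 and 0.180), and the Hp call without any of the 4 ob/ob libraries (adjusted p = 0.103 to 0.225).

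The other genes of the response were followed in eWAT APC-like cells by lists of known members. All counts are to be read beside the 7.22% of genes called in that comparison. Of 18 other acute phase proteins tested, 1 was called higher in ob/ob-Veh than in WT-Veh and 5 lower, with a median log2 difference of -0.81 against -0.0039 over all genes. The 1 was Cp (ceruloplasmin, 1.26), which stood at 232 and 209 CPM and then 491 and 624 CPM. Timp1 (a metalloproteinase inhibitor, -4.62), C4b (complement, -2.24) and Serpina3g (-2.11) led the other direction, Timp1 with 923 and 512 CPM against 33.9 and 27.4 CPM. Hp and Agt thus went the way of Cp, opposite to 5 of the listed proteins.

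Of 19 upstream cytokines and receptors, 2 were called higher in ob/ob-Veh than in WT-Veh and 0 lower, a share near the 7.22% of all genes. Il6 stood at 41.6 and 14.8 CPM and then 248 and 143 CPM (2.74, SE 0.71, adjusted p = 0.044), and Lif at 1.09 and 0.480 and then 16.1 and 12.5 CPM (4.17, SE 0.58, adjusted p = 0.0027). Of 26 STAT3, C/EBP and NF-κB regulators, 3 were called higher and 0 lower, Nfkbiz (1.75), Socs3 (1.69) and Socs1 (1.63), the last 2 being feedback inhibitors of cytokine signalling, again near that background. The renin-angiotensin list had 1 called in each direction among 9, Ace (1.42), which cleaves angiotensin I, and Mme (-1.79), a peptidase that degrades angiotensins. Steap1, a relative of Steap4, was called lower (-3.11) among 6 relatives. Among 21 receptors and ligands of the member proteins 1 was called higher, Tnfaip6 (2.48), which binds Ptx3, and 4 lower, led by C1qb (-2.93), Cd36 (-2.23) and C1qc (-2.22). C1qb and C1qc are macrophage genes.

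Between ob/ob-Rosi and ob/ob-Veh, in a contrast that shares the ob/ob-Veh libraries and where 8.11% of genes were called, the lists had 4 acute phase proteins higher (Timp1 4.65, Serpina3g 2.64, Serpina3n 2.27 and 1 more) and 1 lower (Cp -1.36) of 18. Among cytokines, 1 was higher (Il11 2.25) and 3 lower (Lif -3.60, Il6 -3.14, Il6ra -1.22) of 19. Among regulators 0 were higher and 6 lower of 26, led by Socs1 (-2.33), Socs3 (-2.29) and Nfkbiz (-1.98). Ace was lower (-1.71), and Steap1 higher (3.39). Of the receptors and ligands of the member proteins, C1qb (2.59), C1qa (1.90) and C1qc (1.88) led those called higher. Mmp9 (-2.47) and Tnfaip6 (-2.43) of that list were called lower. In iWAT APC-like cells the only list genes called were Plin1 (-6.23, ob/ob-Veh against WT-Veh) and Lif (-2.31, ob/ob-Rosi against ob/ob-Veh).

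Genes that tissue digestion induces moved with the same libraries. Of 16 on the list, 5 were called higher in eWAT APC-like cells of ob/ob-Veh than of WT-Veh and 0 lower, beside 7.22% of genes, led by Hspa1b (1.70), Zfp36 (1.65) and Dusp1 (1.57), with a median of 0.59. Between ob/ob-Rosi and ob/ob-Veh, Zfp36 (-2.08), Atf3 (-1.66) and Egr1 (-1.56) led those called lower. The summed level of the 16 was 9212 to 11065 CPM in WT-Veh, 16349 to 18999 in ob/ob-Veh and 7170 to 10279 in ob/ob-Rosi. In iWAT it was 16026 to 17952, 20228 to 20693 and 14375 to 16114 CPM. Mesothelial markers summed to 53.2 to 53.3, 179 to 186 and 36.0 to 57.1 CPM in the eWAT APC-like cells, and mural markers to 208 to 315, 85.8 to 124 and 245 to 443 CPM. Neutrophil markers summed to 220 to 368, 133 to 184 and 192 to 318 CPM in eWAT and to 127 to 172, 23.1 to 52.5 and 75.5 to 138 CPM in iWAT. Of the macrophage lists in the eWAT APC-like cells, the lipid-associated one summed to 2495 to 2552, 1196 to 1387 and 2375 to 3079 CPM and its proliferating form (PLAM) to 431 to 685, 106 to 149 and 484 to 510 CPM. The NPVM list was highest in ob/ob-Veh, at 265 to 319, 635 to 676 and 248 to 302 CPM. Ace, named above, is on that list and alone stood at 161 and 220, 506 and 552, and 155 and 157 CPM. The PVM list was at 310 to 430, 254 to 315 and 196 to 302 CPM. In iWAT the NPVM list summed to 325 to 713, 1219 to 1270 and 359 to 422 CPM. Ace alone gave 160 and 307, 889 and 761, and 215 and 203 CPM of it. The iWAT PVM list summed to 212 to 588, 910 to 1031 and 209 to 293 CPM. Adipocyte markers summed to 18.7 to 71.4, 36.2 to 54.0 and 17.5 to 21.7 CPM in the eWAT APC-like cells. In the iWAT ones they summed to 164 to 366, 28.3 to 70.9 and 54.8 to 57.7 CPM. The part of digestion and of RNA from these other cells in the changes of Hp, Agt, Ptx3 and Saa3 was not tested.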

How the data were processed

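Single-cell RNA was measured in 12 libraries of stromal vascular cells, 2 per group and depot (10x Genomics 3′ v3.1). The deposited matrices hold UMI counts per gene and cell that the authors made with bcl2fastq 2.19.1.403 and Cell Ranger 3.0.2 on mm10, with no further normalization. Because counting is from the 3′ end, levels were compared within a gene only. Cells with 700 to 22000 UMIs, 200 to 6000 genes and under 25% mitochondrial UMIs were kept, as in the study. Cells were clustered per depot (scanpy 1.11.5, leidenalg 0.10.2, 2000 variable genes, 25 components, 20 neighbours, resolution 1.0; APC-like cells again at 0.6) and named from marker lists. The naming rule was refined once clusters were known. The libraries' labelled groups were used as given. UMIs were summed per library and class of at least 20 cells and tested with edgeR 4.0.16 (quasi-likelihood, Benjamini-Hochberg over all genes tested, R 4.3.3), in fits of 6 libraries per depot or 12 for depot differences, with the SE taken from the log2 change and its F. Levels by class are CPM, and fold changes from few UMIs are given as ratios with a 95% counting interval, which covers counting error only. The procedure was tested on simulated data. Results were recomputed with DESeq2 1.42.0, with scaling by library size only, with no filter on low counts, other cell filters and clusterings, doublet removal, thinning to 700 UMIs, a replicate block and leaving out each library. The class outside the progenitor-like sub-clusters and the depot fits within parts of the APC-like class were added after the data had been seen. So were the alternatives for classes other than the APC-like ones. The members and lists were chosen with earlier results of these data known. Named list genes were those with the largest called changes in each direction. P-values set a group difference against the spread between libraries, labelled as biological replicates. That spread is fitted for each gene over all groups of the fit and moderated across genes.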

Additional observations from a re-analysis of the deposited data

Results flagged for a closer look

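The difference of Hp between ob/ob-Rosi and ob/ob-Veh was tested for a difference between depots within the parts of the APC-like class. This test was added after the data had been seen. The change differed between depots in both parts. In progenitor-like cells the log2 change was higher in iWAT than in eWAT by 5.63 (SE 0.82, edgeR adjusted p = 0.010), beside 0.185% of genes called, and the call was lost without iWAT ob/ob-Veh replicate 1 (5.27, adjusted p = 0.0791). In APC-like cells outside the progenitor-like sub-clusters it was higher by 5.14 (SE 0.77, edgeR adjusted p = 0.019), beside 0.472% of genes called, and the call was lost without eWAT ob/ob-Veh replicate 1 or 2 (adjusted p = 0.080 and 0.0893), eWAT ob/ob-Rosi replicate 2 (0.0593) or iWAT ob/ob-Veh replicate 1 or 2 (0.144 and 0.10) and with thinned cells (0.0645). The iWAT ob/ob-Veh level of Hp was at or under that of BC-like cells over all iWAT libraries in both sub-classes. In progenitor-like cells the iWAT ob/ob-Rosi levels (14.5 and 4.73 CPM) also lay around the BC-like level of those libraries (10.0 and 9.78 CPM, from 2 UMIs and 1), so both iWAT groups of that test were near free RNA.

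Hp was also counted in cells that no comparison used. In an unnamed eWAT cluster of 810 cells, led by Gpnmb, Trem2, Postn and Bgn, Hp stood at 99.1 CPM over the ob/ob libraries and 46.9 CPM over those of WT-Veh. The ob/ob-Veh cells had 162 CPM and the ob/ob-Rosi cells 66.3 CPM. The difference was not tested.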

How the results depend on the processing

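In APC-like cells of eWAT, 2 members were called between ob/ob-Veh and WT-Veh (1 to 2 without any 1 library, 3 with the replicate block) and 2 between ob/ob-Rosi and ob/ob-Veh (1 to 2 without any 1 library, 1 with DESeq2, 4 with no filter on low counts, 1 with no upper limits on cells). In iWAT the counts were 0 between ob/ob-Veh and WT-Veh (0 to 1 without any 1 library, 2 with DESeq2, 4 with no filter), 1 between ob/ob-Rosi and ob/ob-Veh (0 to 3 without any 1 library, 3 with DESeq2, 2 with cells assigned singly, thinned or cleared of doublets, 4 with no filter, 4 with the replicate block) and 0 between ob/ob-Rosi and WT-Veh (1 with DESeq2, 4 with no filter). For the depot difference they were 1 in WT-Veh (1 to 3 without any 1 library, 2 with DESeq2 or library size alone, 5 with no filter, 3 with the replicate block), 3 in ob/ob-Veh (2 to 5, 5 with DESeq2 or no filter, and 4 with the replicate block) and 2 in ob/ob-Rosi (0 to 2, and 1 with thinned cells). The interactions went from 0 to 1 with DESeq2, to 4 and 5 with no filter and, for rosiglitazone, to 1 with the replicate block and 0 to 1 without any 1 library. With no filter more genes of few counts enter the fit, and the cause of the other shifts was not tested. The share of all genes called was recorded for the main and blocked fits only. Counts under the other settings therefore cannot be told from a general rise or fall in calls. Agt in eWAT between ob/ob-Rosi and ob/ob-Veh, and the depot difference of Hp in WT-Veh and ob/ob-Veh, were called under every alternative run. Over all results and alternatives 1240 values kept their direction and side of the threshold, 133 lost a call, 90 gained one and 22 changed sign. Of the 1240, 56 came from the run with no minimum fold, which cannot remove a call.

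The values that changed sign belonged to results without a call. Saa3 in eWAT between ob/ob-Veh and WT-Veh was -0.22 with cells assigned singly and -0.38 with the replicate block (-4.09 to 1.15 without any 1 library), and between ob/ob-Rosi and ob/ob-Veh it ran from -0.046 to 5.17. Agt in iWAT between ob/ob-Rosi and ob/ob-Veh was -0.19 with thinned cells, -0.065 with library size alone, -0.44 with the replicate block and -0.00597 without ribosomal protein and mitochondrial genes (-1.70 to 0.75 without any 1 library). Ptx3 in iWAT between ob/ob-Veh and WT-Veh was 0.058 at clustering resolution 2 and 0.079 with the replicate block (-1.01 to 1.41), and its depot difference in ob/ob-Veh 0.021 with the block (-0.95 to 1.02). Without any 1 library, Lcn2 in eWAT between ob/ob-Veh and WT-Veh ran from -0.25 to 0.94, Ptx3 outside progenitor-like cells there from -0.37 to 2.44 and Steap4 in iWAT from -1.66 to 0.33. The replicate numbers 1 and 2 gave correlations of same-numbered deviations of 0.312, 0.211 and 0.286 in eWAT and -0.048, -0.018 and 0.551 in iWAT, all 3 above 0.1 in eWAT and 1 of 3 in iWAT. The labels do not say what a number shares, so the fits without the block were kept. The blocked values that change a call are given beside the results for eWAT, and for the depot difference in APC-like cells. Those of iWAT are given as counts only, so the depots are not to be compared by the blocked values listed. Over the classes refitted with it, the block added 17 member calls in eWAT, 17 in iWAT and 9 for the depot difference and removed 0 in each. Some members had few UMIs per library. In the iWAT APC-like cells of WT-Veh and ob/ob-Veh a library held 14 to 30 UMIs of Hp, 5 to 68 of Saa3 and 6 to 52 of Lcn2. Their values there rest on few molecules.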
